A study of Mus musculus with 8 samples.

Results

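The 10 genes described here make, break down and regulate the polyamines putrescine, spermidine and spermine: Odc1, Amd1, Srm, Sms, Sat1, Smox, Paox, Oaz1, Azin1 and Mtap. They were chosen by name for their known roles. The choice used no value as a rule, but was made with earlier results of these libraries known. All 10 of them were found among the 33212 genes of the count table. All 10 also passed the filter on low counts, which left 15291 tested genes.

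Polyamines are small positively charged molecules that bind RNA and DNA and are needed for translation and growth. Ornithine is decarboxylated to putrescine, and aminopropyl groups taken from decarboxylated S-adenosylmethionine (SAM) turn putrescine into spermidine and spermidine into spermine. Each transfer leaves methylthioadenosine, from which methionine can be regained, while acetylation and oxidation lead back from spermine towards putrescine.

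Livers of 4 Nnmt KO and 4 control mice were analysed by RNA-seq, with 1 library per mouse. Nnmt encodes nicotinamide N-methyltransferase, an enzyme that uses SAM to methylate nicotinamide. Polyamine synthesis also draws on SAM, through its decarboxylated form. A comparison of the genotypes asks whether loss of Nnmt in hepatocytes goes along with other levels of the polyamine mRNAs. Nnmt KO mice were male Alb-Cre::Nnmt flox/flox mice on a C57BL/6 background. The controls were male Nnmt flox/flox mice according to the study's text, and are labelled WT. Both genotypes had been fed a methionine- and choline-deficient (MCD) diet, which removes the dietary source of the methionine that SAM is made from. No group on a normal diet is analysed here, so every value given is a value under this diet. Cre driven by the albumin promoter acts in hepatocytes, and the study calls the knockout specific to them. Other cells of the liver may keep Nnmt, which was not tested. The age of these mice was not given in the sources used here.

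Total counts per library ran from 75020072 to 87934362. Levels are given as CPM, the counts of a gene scaled to a common library total, after TMM scaling, which also corrects for differences in library composition. The letters a to d name the 4 libraries of a genotype, as the columns carried no mouse number. Nnmt itself was at 31.8, 44.8, 68.9 and 83.0 CPM in Nnmt KO libraries a to d and at 112, 224, 134 and 84.9 CPM in control libraries a to d. All Nnmt KO libraries were below all control libraries, although Nnmt KO library d was close to control library d. Nnmt had a log2 fold change of -1.28 (SE 0.33), and its adjusted p was 0.123 by the quasi-likelihood test of edgeR and 0.00458 by DESeq2. The 8 hepatocyte markers examined were all expressed. None of the 56 tested markers of 9 cell types passed an adjusted p of 0.05 with edgeR, while 6 had an unadjusted p under 0.05. Of all tested genes, 0.32% passed that adjusted p and 12.6% had such an unadjusted p with edgeR.

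None of the 10 polyamine genes passed an adjusted p of 0.05 between Nnmt KO and control liver, either with edgeR or with DESeq2. Of all tested genes, 0.32% passed it with edgeR and 3.35% with DESeq2. At an unadjusted p under 0.05, 2 of the 10 members were lower in Nnmt KO, Srm and Paox, and no member was higher. The background for that count was 7.13% of all tested genes lower and 5.45% higher, 12.6% in either direction. With DESeq2, 3 members had an unadjusted p under 0.05, as Azin1 was added on the higher side, against 14.2% of all tested genes in either direction. The log2 fold change was below 0 for 7 members and above 0 for 3, with a median of -0.10, where the median of all tested genes was 0.02 and 47.7% of them were below 0. As RNA of the liver as a whole was sequenced, fewer cells of a type and less RNA per cell cannot be told apart in any of these values.

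**Figure D1:**
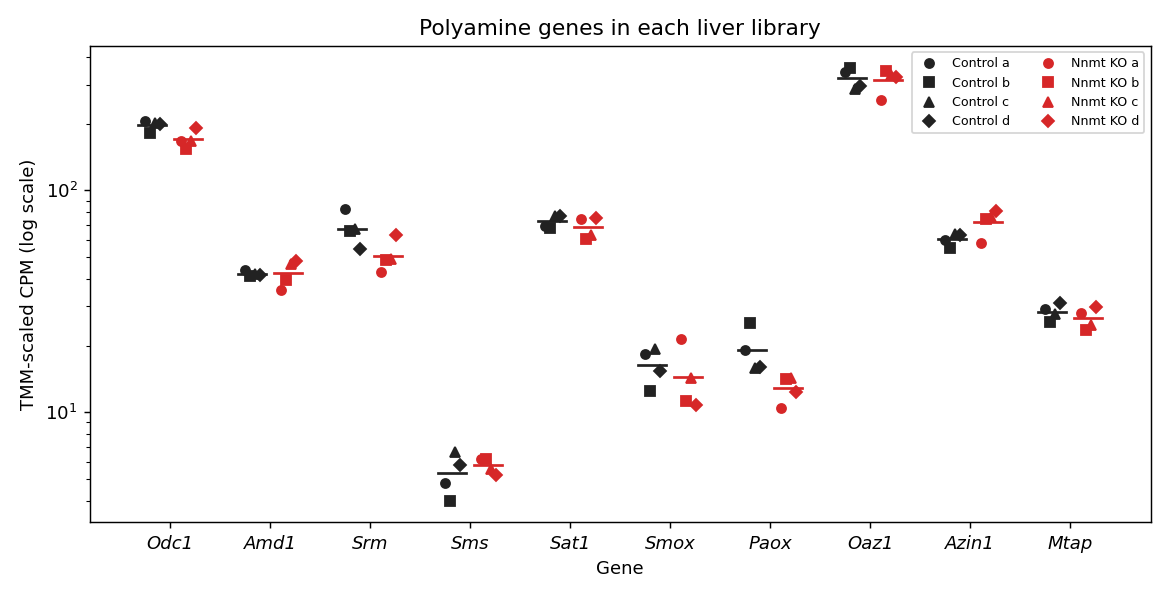
Level of each polyamine gene (TMM-scaled CPM) on a log axis in the 4 Nnmt KO (red) and 4 control (black) libraries, with 1 point per library, its shape giving the library's letter, and a line at the mean of each genotype. Paox is the gene whose 4 Nnmt KO libraries, between 10.5 and 14.2 CPM, all lie below its control libraries, between 15.8 and 25.2 CPM.

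Polyamine synthesis starts with Odc1, ornithine decarboxylase, the rate-limiting enzyme that makes putrescine. Odc1 was at 167, 154, 168 and 192 CPM in the Nnmt KO libraries and at 205, 182, 202 and 199.5 CPM in the control libraries. Nnmt KO library d overlapped the controls, and the other 3 Nnmt KO libraries were below the lowest control. The mean was 170.1 ± 15.7 CPM in Nnmt KO and 197 ± 10.4 CPM in control (SD, n = 4). The log2 fold change of -0.21 (SE 0.11, 95% interval -0.45 to 0.02) had an adjusted p of 0.443 with edgeR. Nnmt KO liver thus held 86.2% of the control level, and the interval reached from 73.1% to 102%.

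Srm, spermidine synthase, transfers the first aminopropyl group onto putrescine. It was at 42.9, 48.7, 49.0 and 63.0 CPM in the Nnmt KO libraries and at 82.5, 65.3, 67.3 and 54.2 CPM in the control libraries. As with Odc1, 3 of the 4 Nnmt KO libraries were below the lowest control library, and Nnmt KO library d lay within the control range. Mean levels were 50.9 ± 8.52 CPM in Nnmt KO and 67.3 ± 11.7 CPM in control (SD, n = 4). For Srm the log2 fold change was -0.40 (SE 0.15, 95% interval -0.74 to -0.07), and edgeR gave an unadjusted p of 0.0215, or 0.294 after adjustment. The low p of Srm depended on single libraries. Its unadjusted p no longer passed 0.05 when Nnmt KO library a, b or c or control library a was left out, and the log2 fold change then ran between -0.52 and -0.27 over all single omissions.

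The last synthetic step and the supply of aminopropyl groups showed smaller differences. Sms, spermine synthase, was at 6.19, 6.18, 5.56 and 5.22 CPM in Nnmt KO and at 4.79, 4.0, 6.61 and 5.80 CPM in control. The Nnmt KO libraries all fell inside the control range, and the log2 fold change was 0.13 (SE 0.18, 95% interval -0.26 to 0.51, adjusted p = 0.805 with edgeR). Amd1, adenosylmethionine decarboxylase, which commits SAM to polyamine synthesis, was at 35.5, 39.4, 46.4 and 47.9 CPM in Nnmt KO and at 43.6, 41.2, 42.1 and 41.5 CPM in control. Its control libraries were tightly grouped and its Nnmt KO libraries spread to both sides of them, with means of 42.3 ± 5.87 CPM and 42.1 ± 1.07 CPM (SD, n = 4). Amd1 had a log2 fold change of 0.01 (SE 0.11, 95% interval -0.24 to 0.25, adjusted p = 0.985 with edgeR), so that a change to between 84.7% and 119% of control is within the interval. Much of the Amd1 sequence is shared with its copy Amd2, as 76.7% of the 50-base windows of Amd1 transcripts also occur in Amd2, so how reads were divided between them is uncertain. The sum of both was 46.9 ± 6.73 CPM in Nnmt KO and 46.5 ± 0.870 CPM in control (SD, n = 4). The same limit applies in part to Odc1, as 24.3% of its 50-base windows occur in transcripts of other genes. For Sms this share was 17.5%, with 17.4% in Sms-ps.

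Among the genes of polyamine breakdown, Paox had the smallest p of all members. Paox is a peroxisomal oxidase that acts on acetylated spermine and spermidine. It was at 10.5, 14.2, 14.2 and 12.3 CPM in the Nnmt KO libraries and at 19.0, 25.2, 15.8 and 16.0 CPM in the control libraries. All Nnmt KO libraries were below all control libraries, which held for no other member and, in that direction, for 4.81% of all tested genes (3.34% in the other direction, 8.16% in either). The mean was 12.8 ± 1.79 CPM in Nnmt KO and 19.0 ± 4.37 CPM in control (SD, n = 4), or 67.4% of control with a 95% interval from 52.2% to 87.2%. Paox had a log2 fold change of -0.57 (SE 0.17), for which edgeR gave an unadjusted p of 0.00616, or 0.183 after adjustment. The difference was smallest, at -0.39, without control library b, the library with the highest Paox. An unadjusted p under 0.05 was found in all 12 alternative analyses, and an adjusted p under 0.05 in none of them (0.0653 to 0.478).

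Paox lies on chromosome 7 at chr7:140115799-140137224 (GRCm38, plus strand), and the genes around it were also lower in Nnmt KO. Of the 20 nearest tested genes, 19 had a log2 fold change below 0, and their median was -0.48. Among these 20 genes, 12 were lower at an unadjusted p under 0.05, 1 of them (Athl1) at an adjusted p under 0.05, and 6 had a lower log2 fold change than Paox. Of all tested genes, 47.7% had a log2 fold change below 0 and 7.13% were lower at such an unadjusted p. The share at such an adjusted p, in either direction, was 0.32%. Over the 241 other tested genes between 125 and 150 Mb of chromosome 7, the median was -0.30 and 13.3% were lower than Paox. Over the 1153 other tested genes of the whole of chromosome 7, the median was -0.14. The 20 nearest genes of Srm had a median log2 fold change of -0.09, those of Odc1 0.13 and those of Azin1 0.11. Over the 10 members, this median ran from -0.48 for Paox to 0.25 for Sms, on chromosome X. The other tested genes of chromosome X had a median of 0.13.

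**Figure D2:**
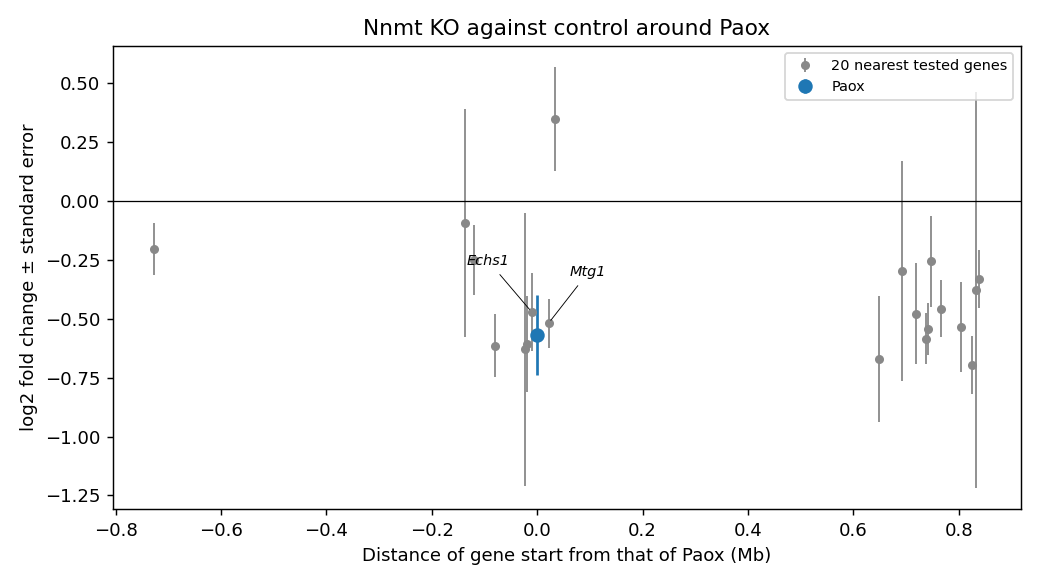
Log2 fold change of Nnmt KO against control (with its standard error) for Paox and the 20 nearest tested genes, by distance of the gene start from that of Paox in Mb. Paox at -0.57 sits among neighbours with a median of -0.48, and 1 neighbour is above 0.

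The closest of these genes overlaps Paox. Echs1, a mitochondrial enzyme of fatty acid oxidation, lies on the opposite strand and had a log2 fold change of -0.47 (SE 0.17, adjusted p = 0.260 with edgeR), and Mtg1, on the other side, one of -0.52 (SE 0.10, adjusted p = 0.0711 with edgeR). Whether the counting used strand was not given in the sources used here, so reads from the shared stretch of Paox and Echs1 cannot be told apart. In addition, 28.5% of the 50-base windows of Paox transcripts occur in transcripts of other genes, 25.2% in Gm19680. The 3 tested genes whose levels over the 8 libraries were most like those of Paox were Qprt, Stard5 and Serpinf2. The root mean square difference of their centred log2 CPM from that of Paox was 0.0954, 0.0989 and 0.101, where the median gene was at 0.452. Qprt and Stard5 are also on chromosome 7, and Serpinf2 is on chromosome 11.

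Sat1 and Smox, the other breakdown genes, overlapped between the genotypes. Sat1, the acetyltransferase that starts the return from spermine and spermidine, was at 74.7, 60.3, 62.8 and 75.2 CPM in Nnmt KO and at 69.5, 67.8, 76.9 and 76.4 CPM in control. Nnmt KO libraries b and c were below the control range and the other Nnmt KO libraries within it, giving a log2 fold change of -0.09 (SE 0.11, 95% interval -0.33 to 0.15, adjusted p = 0.777 with edgeR). Smox, which oxidises spermine directly to spermidine, was at 21.3, 11.2, 14.3 and 10.7 CPM in Nnmt KO and at 18.3, 12.5, 19.4 and 15.3 CPM in control. Nnmt KO library a was the highest of all 8 libraries for Smox and Nnmt KO library d the lowest. Smox had a log2 fold change of -0.18 (SE 0.22, 95% interval -0.67 to 0.30, adjusted p = 0.772 with edgeR). Without Nnmt KO library a it was -0.43, and edgeR's p was 0.0290 before and 0.307 after adjustment.

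The antizyme system controls the ODC protein. Antizyme, encoded by Oaz1, binds ODC and hands it to the proteasome, and Azin1, the antizyme inhibitor, is a relative of ODC that binds antizyme in its place. Translation of antizyme needs a shift of the reading frame by 1 base at an early stop codon, which polyamines favour, and this stop is shown because a count of Oaz1 mRNA says nothing of how often it is passed. In GENCODE M21, 2 Oaz1 transcripts keep the stop in their sequence, and 3 are written with 1 base left out, so that the annotated reading frame runs on. The capitals mark the last codon before the stop, the stop codon TGA and the base that follows it, or what is left of them in the second Oaz1 form, and the homologous site of Oaz2 is given for comparison.
Oaz1 with the stop (chr10:80828280-80828309, GRCm38, plus strand): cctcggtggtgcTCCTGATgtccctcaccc
Oaz1 with 1 base left out (chr10:80828280-80828310, GRCm38, plus strand): cctcggtggtgcTCCGATgtccctcaccca
Oaz2 with the stop (chr9:65686257-65686286, GRCm38, plus strand): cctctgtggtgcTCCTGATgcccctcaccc

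Oaz1 was at 255, 346, 331 and 325 CPM in the Nnmt KO libraries and at 342, 358, 287 and 295 CPM in the control libraries. Nnmt KO library a was the lowest of all, and the other Nnmt KO libraries lay within the control range. The means were 314 ± 40.2 CPM and 320.4 ± 34.7 CPM (SD, n = 4), with a log2 fold change of -0.03 (SE 0.13, 95% interval -0.32 to 0.27, adjusted p = 0.947 with edgeR). Reads of Oaz1 could in part have been divided with a processed copy, as 20.1% of its 50-base windows are shared with Oaz1-ps. Oaz2, a second antizyme, had a log2 fold change of -0.11 (SE 0.10, adjusted p = 0.690 with edgeR).

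Azin1 was at 58.0, 74.4, 76.0 and 80.7 CPM in the Nnmt KO libraries and at 60.0, 54.7, 63.9 and 63.1 CPM in the control libraries. Nnmt KO library a lay within the control range and the other 3 were above the highest control. The mean was 72.3 ± 9.87 CPM in Nnmt KO and 60.4 ± 4.16 CPM in control (SD, n = 4), and the log2 fold change was 0.26 (SE 0.12, 95% interval -0.0044 to 0.52), where edgeR's p was 0.0533 before and 0.403 after adjustment. Without Nnmt KO library a the log2 fold change was 0.35, the unadjusted p 0.00626 and the adjusted p 0.167. Nnmt KO library a also stood apart in its TMM factor, which was 1.21 where the other Nnmt KO libraries had 0.952 to 0.977, and its part in the values of Azin1, Oaz1 and Smox was not tested further.

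**Figure D3:**
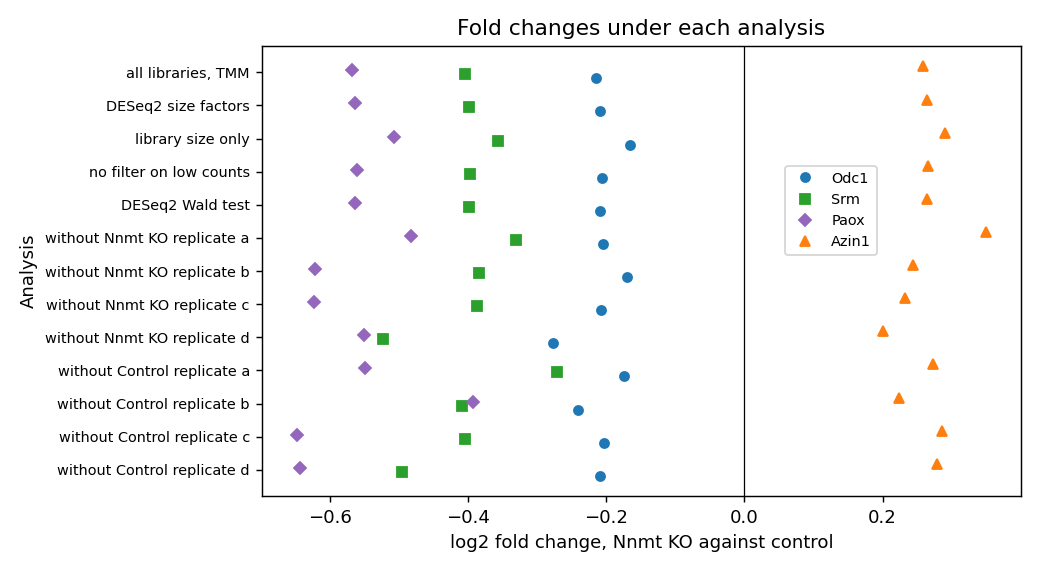
Log2 fold change of Odc1, Srm, Paox and Azin1 with all libraries and under each of the 12 alternative analyses. Paox stays between -0.65 and -0.39 and Srm between -0.52 and -0.27, with the value of Paox closest to 0 without control library b and that of Srm without control library a.

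Odc1 and Azin1 had log2 fold changes of opposite sign, and their ratio within a library was computed after these values were seen. The log2 ratio of Odc1 to Azin1 was between 1.05 and 1.52 in the Nnmt KO libraries and between 1.66 and 1.77 in the control libraries, with means of 1.24 ± 0.204 and 1.71 ± 0.0561 (SD, n = 4). The genotypes did not overlap in this ratio, and as it was chosen from the data no test is given. The log2 ratio of Azin1 to Oaz1 was -2.12 ± 0.0847 in Nnmt KO and -2.40 ± 0.253 in control (SD, n = 4), and the genotypes overlapped. That of Srm to Sms was 3.13 ± 0.342 and 3.68 ± 0.456 (SD, n = 4), again with overlap. For Sat1 to Srm it was 0.43 ± 0.249 and 0.12 ± 0.309 (SD, n = 4), also with overlap.

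Mtap, methylthioadenosine phosphorylase, cleaves the by-product of spermidine and spermine synthesis and opens the way back to methionine. It was at 27.9, 23.5, 24.6 and 29.9 CPM in Nnmt KO and at 29.3, 25.6, 27.8 and 31.1 CPM in control. The libraries of both genotypes were interspersed, and the log2 fold change was -0.10 (SE 0.11, 95% interval -0.35 to 0.14, adjusted p = 0.739 with edgeR).

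**Figure D4:**
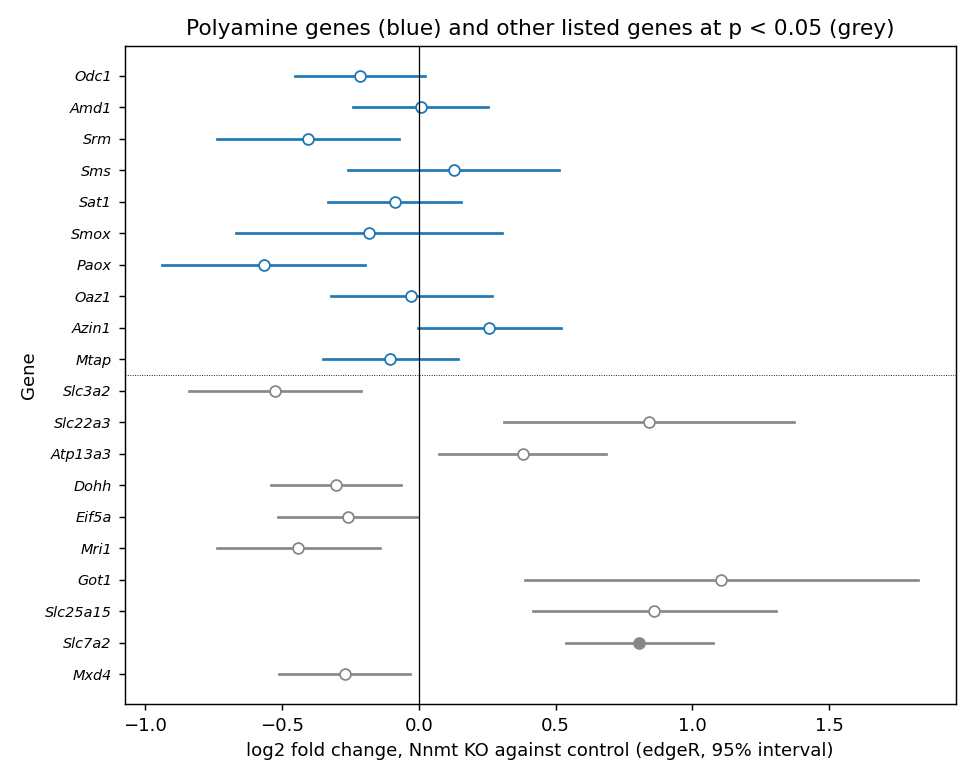
Log2 fold change of Nnmt KO against control with its 95% interval from edgeR for the 10 polyamine genes (blue) and for the genes of the wider polyamine and MYC lists at an unadjusted p under 0.05 (grey). The filled point is Slc7a2, at 0.81, the gene shown here with an adjusted p under 0.05.

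Levels can be set side by side between genes only per length, here as CPM per kb of exon in control liver. The length used was that of all annotated exons of a gene together, which can exceed the length of the transcripts expressed. This length, and reads shared with copies as for Amd1, Oaz1 and Sms, may shift the order and the span of levels. Oaz1 was the highest member, at 125 ± 13.6 CPM per kb, followed by Odc1 at 58.0 ± 3.07, Srm at 42.1 ± 7.30 and Sat1 at 26.2 ± 1.69 (SD, n = 4). The middle of the order was Amd1 at 11.9 ± 0.303, Azin1 at 9.66 ± 0.665 and Mtap at 8.82 ± 0.721 CPM per kb (SD, n = 4). The lowest were Smox at 4.20 ± 0.799, Paox at 3.87 ± 0.890 and Sms at 0.882 ± 0.190 CPM per kb (SD, n = 4). Control libraries of neighbours in this order overlapped for Azin1 and Mtap and for Smox and Paox, and for no other neighbouring pair. From Sms to Oaz1 the levels spanned 142-fold, and the lowest control library of Oaz1 was above the highest of Odc1.

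**Figure D5:**
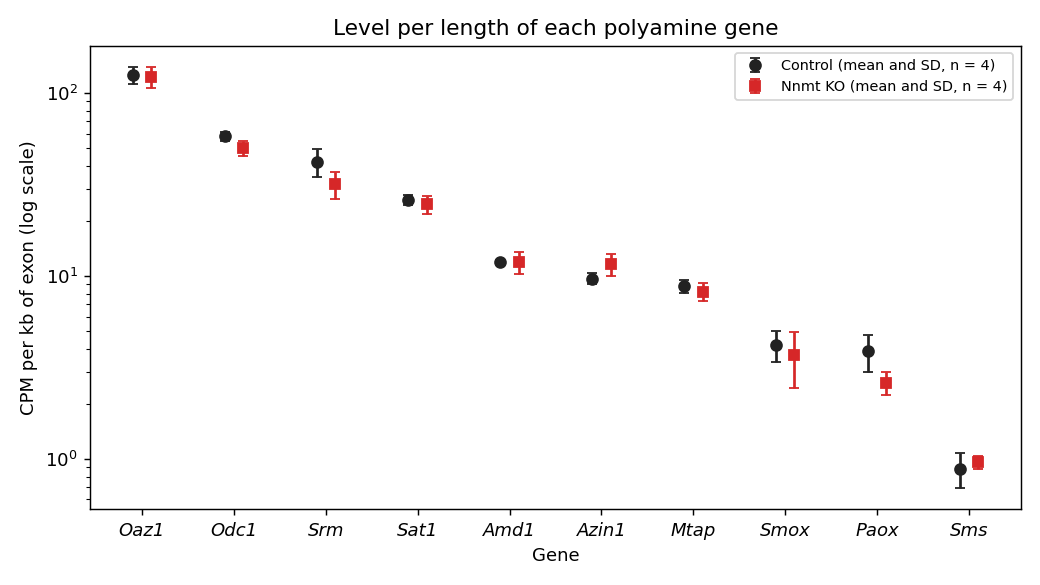
Level per length of each polyamine gene (TMM-scaled CPM per kb of exon, log axis) as the mean of the 4 control (black) and 4 Nnmt KO (red) libraries with bars of 1 SD, ordered by the control mean. Oaz1 is highest at a control mean of 125 and Sms lowest at 0.882, and the order of the control means is Oaz1, Odc1, Srm, Sat1, Amd1, Azin1, Mtap, Smox, Paox, Sms.

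A wider list of 37 genes covered the supply of ornithine and SAM, transport, further homologs, the salvage of methionine after Mtap and the use of spermidine in hypusine synthesis. Of these, 35 were tested, 1 passed an adjusted p of 0.05 (higher in Nnmt KO), and 9 had an unadjusted p under 0.05, with 4 lower and 5 higher. Over all tested genes these shares were 0.32% for the adjusted p and, for the unadjusted p, 12.6% in either direction, 7.13% lower and 5.45% higher. The median log2 fold change over the tested genes of the list was -0.11. All Nnmt KO libraries were below all control libraries for 4 of these genes, Slc3a2, Eif5a, Mri1 and Oat. They were above all control libraries for 3, Slc7a2, Atp13a3 and Eif5a2. Over all tested genes, these shares were 4.81% below and 3.34% above. Slc22a2 and Atp13a4 were too low to be tested.

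The gene past the threshold was Slc7a2, a transporter of cationic amino acids that takes up arginine, ornithine and lysine and so stands ahead of Odc1. Slc7a2 was at 461, 488, 568 and 537 CPM in the Nnmt KO libraries and at 296, 325, 260.5 and 293 CPM in the control libraries. All Nnmt KO libraries were above all control libraries, with means of 514 ± 48.2 CPM and 294 ± 26.2 CPM (SD, n = 4). Slc7a2 rose by 0.81 on the log2 scale (SE 0.12, adjusted p = 0.0399 with edgeR). Its log2 fold change stayed between 0.75 and 0.87 in the 12 alternative analyses, but its adjusted p passed 0.05 in only 4 of them. The adjusted p was 0.0669 when genes of low counts were kept and between 0.0523 and 0.143 when any library other than Nnmt KO library a was left out.

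On the same ornithine branch, Slc25a15, the mitochondrial ornithine carrier, was at a mean of 632 ± 165 CPM in Nnmt KO and 348 ± 66.0 CPM in control (SD, n = 4). Its log2 fold change of 0.86 (SE 0.20) had an adjusted p of 0.100 with edgeR and of 0.00232 with DESeq2. The genotypes overlapped, as Nnmt KO library a, at 433 CPM, was below control library b, at 447 CPM. The other 5 genes of ornithine supply and use, arginases Arg1 and Arg2, Oat, Otc and Slc7a1, had an unadjusted p above 0.05.

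Of the transporters, Slc3a2 is a subunit of amino acid transporters also tied to polyamine export. It had a log2 fold change of -0.53 (SE 0.14, adjusted p = 0.142 with edgeR), and its libraries did not overlap between genotypes. Slc22a3, an organic cation transporter, had one of 0.84 (SE 0.24, adjusted p = 0.169 with edgeR). Atp13a3, a P-type ATPase of polyamine uptake, had one of 0.38 (SE 0.14, adjusted p = 0.282 with edgeR), with all Nnmt KO libraries above all controls. With DESeq2 the adjusted p was 0.0270 for Slc3a2 and 0.0295 for Slc22a3. For Slc22a3, Nnmt KO library b, at 7.98 CPM, lay within the control range of 6.63 to 10.1 CPM.

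Spermidine is the donor for hypusine, a modified lysine of the translation factor eIF5A. Eif5a was at a log2 fold change of -0.26 (SE 0.12, adjusted p = 0.393 with edgeR). Dohh, the hydroxylase that completes hypusine, was at -0.30 (SE 0.11, adjusted p = 0.271 with edgeR). Of the 4 hypusine genes, 3 were below 0 and 1, Eif5a2, was above it, at 0.80 (SE 0.42, adjusted p = 0.457 with edgeR). Eif5a2 was low, at means of 0.502 CPM in Nnmt KO and 0.287 CPM in control, with all Nnmt KO libraries above all controls. In the salvage of methionine after Mtap, Mri1 had a log2 fold change of -0.44 (SE 0.14, adjusted p = 0.198 with edgeR). Got1, an aminotransferase that can act at the last step of this route and has other roles, had one of 1.11 (SE 0.33, adjusted p = 0.183 with edgeR, 0.0150 with DESeq2). The genotypes overlapped for Got1, as Nnmt KO library a, at 602 CPM, was below control library b, at 896 CPM. None of the 3 genes of SAM synthesis had an unadjusted p under 0.05, with log2 fold changes of 0.26 for Mat1a and -0.14 for Mat2a.

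Odc1 is a known target of the transcription factor MYC. Of 8 genes of the MYC network, none passed an adjusted p of 0.05 with edgeR or DESeq2. Of all tested genes, 0.32% passed it with edgeR and 3.35% with DESeq2. At an unadjusted p under 0.05 with edgeR there was 1 gene, Mxd4, or 12.5% of the list, against 12.6% of all tested genes. Mxd4 had a log2 fold change of -0.27 (SE 0.11, adjusted p = 0.330 with edgeR). Myc itself was at 23.8 ± 6.37 CPM in Nnmt KO and 21.9 ± 6.35 CPM in control (SD, n = 4), with a log2 fold change of 0.12 (SE 0.24).

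Markers of other liver cells were read beside these values. The summed level of 7 lymphocyte markers was between 3.90 and 5.35 CPM in the Nnmt KO libraries. It was between 2.35 and 3.35 CPM in the control libraries, without overlap. Singly, 2 of the 7 were higher at an unadjusted p under 0.05 with edgeR, and the smallest adjusted p was 0.106. The libraries did not overlap for 3 of the 7, all higher. Of all tested genes, 5.45% were higher at such an unadjusted p, and 3.34% were higher without overlap. A log2 fold change below 0 was found for 47.7% of all tested genes. All 7 lymphocyte markers had a log2 fold change above 0, with a median of 0.76. The same sign was found for 6 of 6 cholangiocyte markers (median 0.43, summed level 89.4 to 279 CPM in Nnmt KO and 50.3 to 167 CPM in control) and for 8 of 8 stellate cell markers (median 0.30, 255 to 658 CPM and 206 to 364 CPM). It was also that of 7 of 8 macrophage markers (median 0.25, 739 to 1262 CPM and 543 to 1172 CPM) and of 5 of 5 markers of proliferating cells (median 0.18, 7.37 to 33.0 CPM and 10.8 to 19.4 CPM). Erythroid markers had a log2 fold change below 0 for 5 of 5 genes (median -0.17, 589 to 765 CPM and 618 to 1003 CPM). Endothelial markers, with 2 of 6 above 0 (median -0.04, 183 to 209.8 CPM and 144 to 278 CPM), hepatocyte markers, with 5 of 8 (median 0.10, 77779 to 130808 CPM and 87554 to 128602 CPM), and neutrophil markers, with 1 of 3 tested (median -0.01, 4.91 to 13.6 CPM and 5.11 to 13.0 CPM over all 5), were on both sides of 0. Apart from the lymphocyte sum, the summed levels overlapped between genotypes, and 1 neutrophil marker was at 0 in every library. The part of these cells in the levels of Paox, Srm and Slc7a2 was not tested.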

How the data were processed

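RNA-seq of liver from 4 Nnmt KO and 4 control mice was used, and no column of the table was left out (0 unused columns). The authors aligned the reads with HISAT2 and deposited a table of raw counts, in whole numbers, for each gene. The submitters' processing notes also list StringTie and build mm10. Versions, the annotation and the use of strand are not given in the sources used here, so reads of overlapping or near-identical genes may have been divided in ways that change their counts. The study names the KAPA HyperPrep library kit and the labels NEBNext Ultra. Libraries were lettered in column order within a genotype, which names them and pairs nothing. Libraries of the same genotype differed by more than counting noise (chi-square per degree of freedom 39.9 to 248), so each was counted once.

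Genes were filtered by filterByExpr of edgeR 4.0.16 (minimum count 10) in R 4.3.3, scaled by TMM and tested with the quasi-likelihood test, with Benjamini-Hochberg adjustment over all 15291 tested genes. Total counts of 75020072 to 87934362 per library mean that 3 counts stand for at most 0.04 CPM, so the spread between mice limits the precision. Alternatives were DESeq2 1.42.0, which the study names, DESeq2's size factors, library size only, no filter, and each library left out in turn. The scripts were tested on simulated data. Positions and exon lengths came from GENCODE M21 (GRCm38), which held 15146 of the tested genes (99.1%). Of the genes on the lists, 2 were found by Ensembl identifier under another symbol.

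The members, the wider polyamine, MYC network and cell marker lists and the tests were chosen with earlier results of these data known, although the members were taken by role and not by a rule on their values. Every member is named, as are Nnmt, the genes of the wider and MYC lists at an unadjusted p under 0.05, and the 3 genes most like the member of smallest p. Other genes were named after their values were seen. Listed genes at an unadjusted p of 0.05 or above are otherwise given as counts.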

Additional observations from a re-analysis of the deposited data

Results flagged for a closer look

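In a group of 4 libraries, a library is given here when its gap to the nearest of the others is a large part of the whole range of the group. Chance gives about 2.5 such cases in the 50 groups examined, and 2 were found. Slc25a15 was at 447 CPM in control library b, where the other control libraries lay between 310 and 325 CPM. Library a of Nnmt KO had a TMM factor of 1.21, where the other Nnmt KO libraries lay between 0.952 and 0.977. None of the 10 polyamine genes had a library of this kind.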

How the results depend on the processing

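No paired analysis was possible because the columns of the table carry no mouse number. Leaving out 1 library at a time moved the number of members at an unadjusted p under 0.05 from 2 to between 1 and 3, with 1 without Nnmt KO library b, Nnmt KO library c or control library a. The share of all genes at such a p was then 8.08% to 14.1%. The number of members whose libraries did not overlap went from 1 to between 1 and 3, against 9.45% to 14.3% of all genes, as 3 libraries overlap less readily than 4, and was 2 with library size only, against 6.68% of all genes. On the wider list, the number of genes past an adjusted p of 0.05 went from 1 to 2 with library size only, to 0 with no filter on low counts, to 5 with DESeq2 and to between 0 and 3 with 1 library left out. On the MYC list, 1 gene at an unadjusted p under 0.05 became 0 with library size only and 0 to 2 with 1 library left out. The log2 fold change of Nnmt was -1.28 with DESeq2, now past the threshold, and -1.52 to -0.94 with 1 library left out. The sign of the members closest to 0 turned. Amd1 ran from -0.058 to 0.083 with 1 library left out, and was below 0, at -0.040 and -0.058, without Nnmt KO libraries c and d. Oaz1 was at 0.021 with library size only and ran from -0.078 to 0.059 with 1 library left out, above 0 at 0.059, 0.023 and 0.039 without Nnmt KO library a and control libraries a and b. The other 8 members kept their direction in all 12 alternatives, and no member passed an adjusted p of 0.05 in any. Over all genes, 49 passed it in the analysis reported, 513 with DESeq2, 22 with library size only, 30 with DESeq2's size factors in edgeR, 8 with no filter, 149 without Nnmt KO library a and 6 to 22 with 1 of the other libraries left out. Where a value changed, the cause was not tested.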
